A study of Danio rerio with 2 samples.

Results

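Collagen genes were followed in single cells of the adult male zebrafish hypothalamus. A collagen gene was any gene whose name in the deposited gene list began with col, a number, the letter a and a digit, in capitals or not, and that had at least 10 unique molecular identifiers (UMIs, the counted transcript molecules) over both libraries. 38 of the 32057 listed genes had such a name, and 36 of them reached the minimum, against 23614 genes of all names. The 2 that did not were COL10A1 with 8 UMIs and col10a1a with 3 UMIs over all barcodes. Some zebrafish genes are listed under the capitalised symbol of their mammalian counterpart (COL4A1, COL14A1 and others) and are given here as listed. The name COL12A1 belongs to 2 genes, which are told apart by their identifiers.

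Hypothalami were taken from wild-type fish (WT) and from fish in which both cholecystokinin genes, cck1 and cck2, had been knocked out (CCK1/2-KO). All fish were males of 6 months, and the methods name AB as the zebrafish strain and CRISPR/Cas9 injected at the embryo stage as the source of the mutant lines, so that the edits were not limited to the brain. Tissue of 30 fish per group was pooled, dissociated with trypsin, EDTA and DNase II, and run as 1 droplet library per genotype. Genotype, pool, dissociation and library run therefore cannot be told apart, no test between genotypes was possible, and each interval given in parentheses is an exact 95% interval that covers counting error only.

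Collagens are trimers of chains with long Gly-X-Y repeats, secreted after their prolines and lysines have been hydroxylated in the endoplasmic reticulum. Fibrillar types build the cables of connective tissue, the fibril-associated types decorate them, and type IV forms the sheet-like network of basement membranes. In the brain, collagen protein lies mainly in the meninges and in the basement membrane around vessels, where endothelium and mural cells (pericytes and smooth muscle) meet the end feet of glia.

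After filtering, 8543 WT cells with a median of 3047 UMIs and 10393 CCK1/2-KO cells with a median of 2878 UMIs remained. The ligand gene ccka, which bears on the genotype labels, stood at 376 CPM (counts per 1000000 UMIs of the same cells) in WT and 163 CPM in CCK1/2-KO, with a log2 ratio of −1.20 (−1.24 to −1.17). Transcripts of it were thus still counted in the edited library, and its level there was the lower of the pair. Cells were sorted into classes by fixed marker lists that held no collagen. Mural-like cells numbered 228 in WT and 222 in CCK1/2-KO, endothelium-like cells 141 and 162, astroglia-like cells 2042 and 2353, and neuron-like cells 3007 and 3910. The receptor gene pdgfrb was found in 91.2% and 92.8% of the mural-like cells, and the receptor gene flt1 in 98.6% and 96.3% of the endothelium-like cells, but both genes are markers of these gates, so these shares only describe the cells. The fibroblast gate held 36 and 56 cells, but its leading genes were the lymphatic genes lyve1b, stab2 and flt4 beside loxl1, so these are called cells of the fibroblast gate and not fibroblasts.

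The most abundant collagen transcript of the tissue was that of COL14A1 (ENSDARG00000005762), a fibril-associated collagen, with 3985 UMIs in WT and 4124 in CCK1/2-KO, or 84.0 and 78.5 CPM. It was followed by col18a1a (ENSDARG00000036558), whose protein is a basement membrane collagen and, in mammals, the source of endostatin, with 33.96 and 33.2 CPM. COL5A1 (ENSDARG00000012593), the chain of type V that helps fibrils to form, had 28.5 and 34.1 CPM. The paired basement membrane chains COL4A2 (ENSDARG00000104110) and COL4A1 (ENSDARG00000055009) had 23.7 and 26.1 CPM and 18.6 and 19.9 CPM. These are levels per molecule counted at the transcript end, so gene length does not enter them. At the other end of the range, col8a1a had 3 and 13 UMIs and col5a3b 7 and 4 UMIs in the whole data set.

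By family, fibril-associated collagens stood highest with 129 and 131 CPM over 8 genes, followed by the fibrillar collagens with 96.8 and 110 CPM over 13 genes. The 4 basement membrane network genes summed to 48.3 and 50.2 CPM, the 2 multiplexins (types XV and XVIII) to 36.9 and 35.8 CPM, and the 5 genes of type VI and the related type XXVIII to 15.9 and 12.9 CPM. The 3 genes of type VIII, which forms hexagonal lattices, summed to 7.52 and 10.6 CPM. The transmembrane collagen gene col17a1a, the protein of which anchors epithelia, had 7 and 22 UMIs. The family sums leave out collagen genes identified only through a table of gene symbols, among them col6a1, col4a3 and col4a6. They can therefore understate a family.

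Summed over all 36 genes and all cells, the level differed by 0.07 on the log2 scale (0.04 to 0.10), with CCK1/2-KO slightly higher. Gene by gene, the interval of the ratio lay above 0 for 12 of the 36 genes, beside 21.1% of all 23427 genes measured in kept cells, and below 0 for 8, beside 23%. It held 0 for the other 16. With the 3 highest cells of each library left out of each gene, the calls of col5a2a and col1a1a were lost, and those of COL4A1, COL12A1 (ENSDARG00000019601) and col9a1a were gained, so that 14 intervals lay above 0 and 7 below. A level at least 2-fold higher in CCK1/2-KO was seen for 3 of 36 genes (8.33%), beside 3.53% of all genes, and a level at least 2-fold lower for 0, beside 4.35%. The 3 were COL12A1 (ENSDARG00000078322), col8a1a and col17a1a, the last with a ratio of 1.51 (0.23 to 2.98). Both col8a1a and col17a1a had fewer than 50 UMIs. Among the 32 collagen genes with at least 50 UMIs, 1 was at least 2-fold higher, beside 1.64% of all genes at that minimum, and 0 were at least 2-fold lower, beside 2.49%. The median ratio of the collagen genes was 0.06, against −0.01 for all genes.

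**Figure D1:**
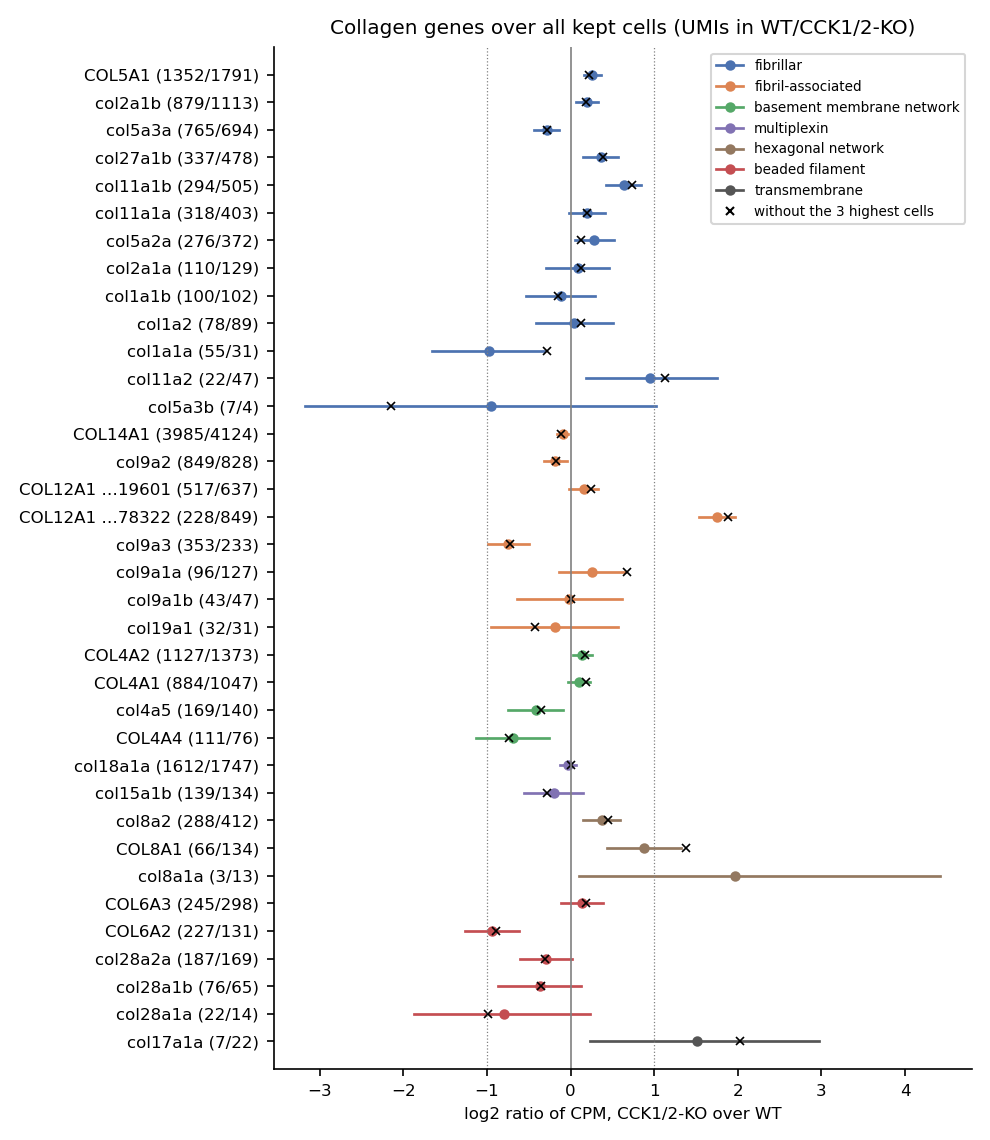
Log2 ratio of CPM (CCK1/2-KO over WT, all kept cells) of each of the 36 collagen genes, grouped by family, with the exact 95% counting interval as a bar, the value without the 3 highest cells of each library as a cross, and the UMIs of both libraries in parentheses. Dotted lines mark 2-fold. COL12A1 (ENSDARG00000078322), at 1.75, is the only gene with at least 50 UMIs beyond 2-fold. The scarcer genes col8a1a and col17a1a also lie beyond 2-fold. COL14A1, col18a1a and the paired chains COL4A1 and COL4A2 lie near 0.

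The only gene with at least 50 UMIs that was at least 2-fold higher was COL12A1 (ENSDARG00000078322). It is a member of the fibril-associated type XII, which in other vertebrates lies at the surface of fibrils in tendon and other load-bearing tissue. WT had 228 UMIs of it in 191 cells and CCK1/2-KO 849 UMIs in 563 cells, which is 4.80 and 16.2 CPM. The log2 ratio was 1.75 (1.54 to 1.97), and 1.88 without the 3 highest cells, so that those cells did not carry the difference. The other gene of that name, COL12A1 (ENSDARG00000019601), had 517 and 637 UMIs, or 10.9 and 12.1 CPM, with a ratio of 0.15 (−0.02 to 0.32). How far reads of these 2 related genes could be exchanged in the counting was not tested.

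The most abundant genes differed little. COL14A1 had a ratio of −0.10 (−0.16 to −0.03) and col18a1a one of −0.03 (−0.13 to 0.07). For COL4A2 and COL4A1 the values were 0.14 (0.02 to 0.25) and 0.10 (−0.03 to 0.23), and for col2a1b, a chain of the cartilage collagen type II with 18.5 and 21.2 CPM, the ratio was 0.19 (0.07 to 0.32).

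Further genes with a higher level in CCK1/2-KO came from several families. COL8A1, a chain of the hexagonal type VIII that endothelium and eye tissues use in mammals, had 66 UMIs (1.39 CPM) in WT and 134 (2.55 CPM) in CCK1/2-KO, a ratio of 0.88 (0.44 to 1.32). Of these UMIs, 60.6% and 57.5% lay in the fibroblast gate, which held 36 and 56 cells. The partner chain of COL8A1, col8a2, had 288 and 412 UMIs, with 0.37 (0.15 to 0.59). Type XI, a fibrillar collagen of cartilage, the inner ear and the eye, was higher in col11a1b with 294 and 505 UMIs and 0.63 (0.42 to 0.85), and in col11a2 with 22 and 47 UMIs and 0.95 (0.19 to 1.75). For the paralog col11a1a the interval held 0, at 0.20 (−0.02 to 0.41). The fibrillar genes col27a1b and COL5A1 had ratios of 0.36 (0.15 to 0.56) and 0.26 (0.16 to 0.36). For col5a2a, which encodes another chain of type V, the ratio of 0.28 (0.06 to 0.51) became 0.13 (−0.12 to 0.38) without the 3 highest cells.

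Lower levels in CCK1/2-KO were seen for chains of types VI, IX, IV and I. COL6A2, a chain of the beaded filaments of type VI, had 227 UMIs (4.78 CPM) in WT and 131 (2.49 CPM) in CCK1/2-KO, a ratio of −0.94 (−1.26 to −0.62). Its partner chain col6a1, which is no member by name in the files and was identified through a table of gene symbols, had 13.1 and 7.67 CPM and −0.77 (−0.95 to −0.59), while the third chain, COL6A3, did not share this difference, at 0.14 (−0.11 to 0.39). The fibril-associated chain col9a3 had 353 and 233 UMIs and −0.75 (−0.99 to −0.50), and its partner col9a2 849 and 828 UMIs and −0.18 (−0.32 to −0.04). The chains COL4A4 and col4a5, of the basement membrane networks known from kidney and other epithelia in mammals, had −0.69 (−1.13 to −0.26) and −0.42 (−0.75 to −0.09), although the value of col4a5 turned to 0.17 when each cell was given the same weight. The type V chain col5a3a had −0.29 (−0.44 to −0.14). For col28a2a and col28a1b, of type XXVIII, the intervals held 0, at −0.29 (−0.60 to 0.02) and −0.37 (−0.87 to 0.12).

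The chains of type I, the main collagen of bone, skin and tendon, were scarce. The gene col1a1a had 55 WT UMIs in 19 cells and 31 CCK1/2-KO UMIs in 17 cells, and most of the WT UMIs lay in 3 cells. Its ratio of −0.97 (−1.66 to −0.31) was −0.29 (−1.24 to 0.66) without the 3 highest cells. The genes col1a1b (100 and 102 UMIs) and col1a2 (78 and 89 UMIs) had ratios of −0.12 and 0.04 with intervals that held 0. Only 3 WT cells and 6 CCK1/2-KO cells held UMIs of both col1a1a and col1a2.

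The collagen transcripts were spread over very different cells. Neuron-like cells held 38.7% of all collagen UMIs in WT and 39.7% in CCK1/2-KO, below their share of all UMIs of 50.8% in each library. Astroglia-like cells held 30.6% and 32.8% of collagen UMIs with 20.4% and 22.2% of all UMIs. Mural-like cells held 7.30% and 5.46% with only 2.91% and 1.80% of all UMIs, and endothelium-like cells 4.28% and 4.57% with 2.38% and 2.53%. Cells that passed several classes held 9.97% and 8.83% of collagen UMIs and are not counted as a class here. For col9a3 they held 35.1% and 37.8%, more than any class. Among the classes, the neuron-like class held the largest number of a gene's UMIs for 18 genes in the WT library and 21 in the other. For 13 and 11 genes it was the astroglia-like class, and it was the same class in both libraries for 32 of the 36 genes. By the level in CPM, which does not depend on the size of a class, the neuron-like class stood highest for only 5 and 9 genes, and the class was the same for 21 of the 34 genes with such a class in both libraries.

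**Figure D2:**
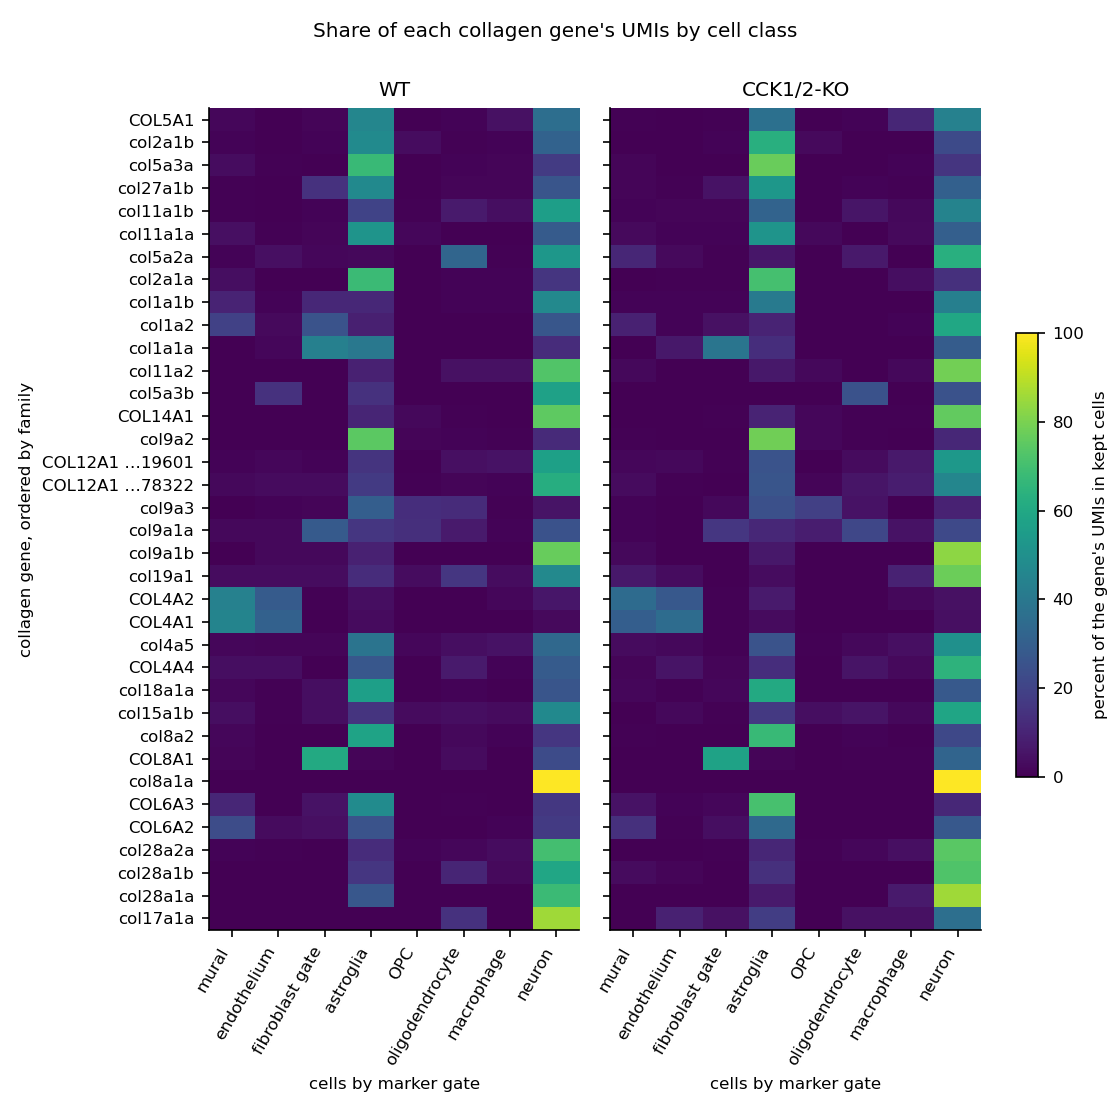
Percent of each collagen gene's UMIs in kept cells that lay in each marker-gated class (columns), for WT (left) and CCK1/2-KO (right). Genes are in rows ordered by family, and OPC stands for oligodendrocyte precursor-like cells. Classes with few UMIs, cells left unassigned and cells that passed several classes are not drawn. The last of these held 9.97% and 8.83% of all collagen UMIs. COL4A1 and COL4A2 are concentrated in mural-like and endothelium-like cells, col9a2 and col18a1a in astroglia-like cells, and COL14A1 in neuron-like cells.

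Relative to all transcripts of a class, and among classes of at least 20 cells, collagens stood highest in the oligodendrocyte precursor-like cells (853 CPM in 20 WT cells and 702 CPM in 27 CCK1/2-KO cells) and in the mural-like cells (838 and 1061 CPM). The fibroblast gate had 812 CPM (728 to 903) in WT and 441 CPM in CCK1/2-KO. Its WT interval overlapped those of the precursor-like cells (739 to 981) and mural-like cells (791 to 888). Endothelium-like cells had 602 and 633 CPM, astroglia-like cells 501 and 518 CPM, and neuron-like cells 255 and 274 CPM. Mature oligodendrocyte-like cells had 155 and 162 CPM and macrophage-like cells 91.5 and 157 CPM. In erythrocyte-like cells, which should make no collagen, 45.4 and 50.9 CPM were counted, and this was used as a rough measure of free RNA. There, 3 cells held 25.8% of the collagen UMIs in WT and 18.4% in CCK1/2-KO. Whether all of these UMIs came from free RNA was not tested.

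The ratio of the summed level was 0.34 (0.22 to 0.46) in mural-like cells and 0.78 (0.54 to 1.03) in macrophage-like cells, with CCK1/2-KO higher. It was 0.10 (0.05 to 0.15) in neuron-like cells, 0.07 (−0.08 to 0.22) in endothelium-like cells and 0.05 (−0.01 to 0.10) in astroglia-like cells. In the fibroblast gate it was −0.88 (−1.12 to −0.64), but 47.9% of the WT UMIs there lay in 3 cells and the value without the 3 highest cells was −0.48.

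**Figure D3:**
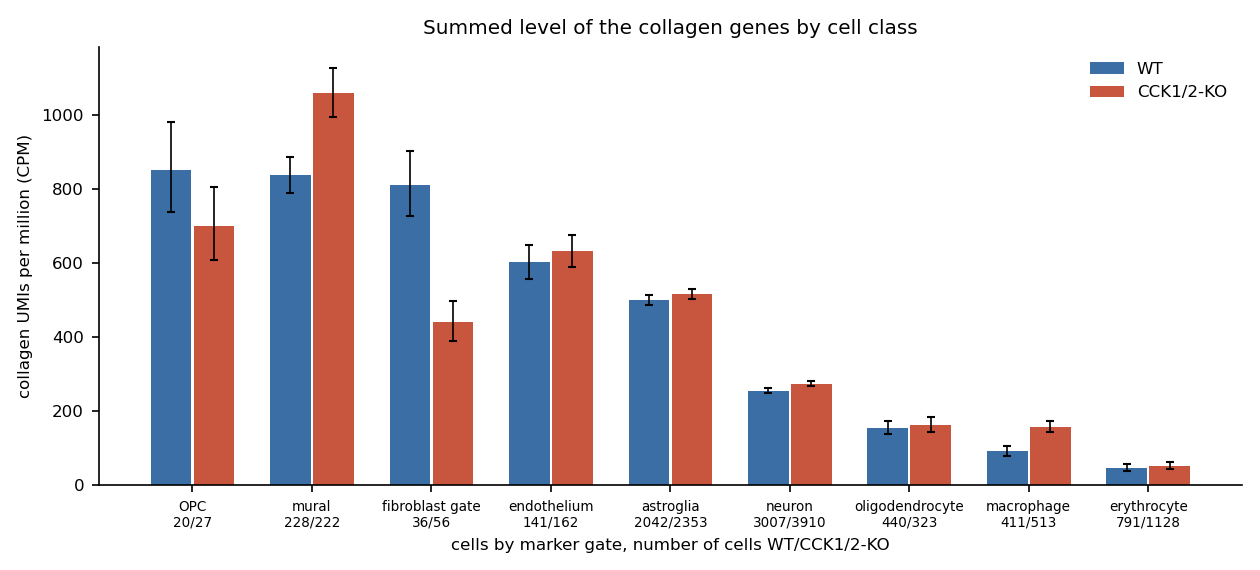
Summed level of the 36 collagen genes in CPM by marker-gated class, WT in blue and CCK1/2-KO in red, with exact 95% Poisson intervals as error bars and the number of cells of each library under the class name. The mural-like class stands at 838 and 1061 CPM, and the erythrocyte-like class, at 45.4 and 50.9 CPM, is used as a rough measure of free RNA.

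At a common depth of 1000 UMIs per cell, to which cells were thinned, a collagen UMI was found in 21.9% of the WT and 23.1% of the CCK1/2-KO cells (44.7% and 45.9% before thinning). The share was 56.5% and 62.6% among mural-like cells, 47.8% and 46.1% among endothelium-like cells, 29.9% and 31.5% among astroglia-like cells, and 19.9% and 20.9% among neuron-like cells. Erythrocyte-like cells gave 3.75% and 5.99%. The median depth before thinning was 1171 and 1099 UMIs in erythrocyte-like cells, 1480 and 1532 UMIs in astroglia-like cells and 6743 and 5742 UMIs in neuron-like cells.

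Among classes of at least 20 cells, vessel cells had the highest levels of the type IV chains COL4A1 and COL4A2. In mural-like cells COL4A2 had 496 WT UMIs (359 CPM) in 137 cells and 480 CCK1/2-KO UMIs (507 CPM) in 159 cells, and its level was 26.3-fold and 29.3-fold that of all other cells. Its partner COL4A1 had 400 UMIs (289.8 CPM) in WT and 312 UMIs (329 CPM) in CCK1/2-KO, 27.6-fold and 23.1-fold the level of other cells. In endothelium-like cells COL4A2 stood at 286 and 283 CPM and COL4A1 at 242 and 279 CPM. Thinned to equal depth, a COL4A2 UMI was found in 31.1% of the WT and 43.6% of the CCK1/2-KO mural-like cells, against 0 of the erythrocyte-like cells in both libraries. Without thinning, 2 WT and 5 CCK1/2-KO erythrocyte-like cells held 9 and 10 COL4A2 UMIs.

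Between genotypes, COL4A2 of mural-like cells was higher in CCK1/2-KO by 0.50 (0.31 to 0.68) on the log2 scale, whereas the ratio of COL4A1 was 0.18 (−0.03 to 0.40). In endothelium-like cells the ratios were −0.02 (−0.23 to 0.20) for COL4A2 and 0.20 (−0.03 to 0.43) for COL4A1. The difference between the cell classes was not tested. Per COL4A1 UMI there were 1.24 COL4A2 UMIs in WT and 1.54 in CCK1/2-KO mural-like cells, and 1.18 and 1.02 in endothelium-like cells.

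The chains COL4A1 and COL4A2 were found together in the same vessel cells. Of the mural-like cells with a COL4A1 UMI, 81.5% in WT and 85.4% in CCK1/2-KO also had one of COL4A2. Among all mural-like cells, 60.1% and 71.6% had a COL4A2 UMI, and the part of cell depth in this was not tested. In the endothelium-like class, 63 WT and 91 CCK1/2-KO cells had both. In neuron-like cells, 0 cells of either library had both. In the RefSeq annotation (assembly GRCz12tu) the genes col4a1 and col4a2 lie next to each other with 0 genes between them, as do col4a3 and col4a4, and col4a5 and col4a6. The remaining type IV members were not vessel genes by this measure: mural-like and endothelium-like cells held 3.6% each of the WT UMIs of COL4A4, and 1.8% and 1.2% of those of col4a5. The chains col4a5 and col4a6 were detected together in 21 WT and 4 CCK1/2-KO astroglia-like cells.

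**Figure D4:**
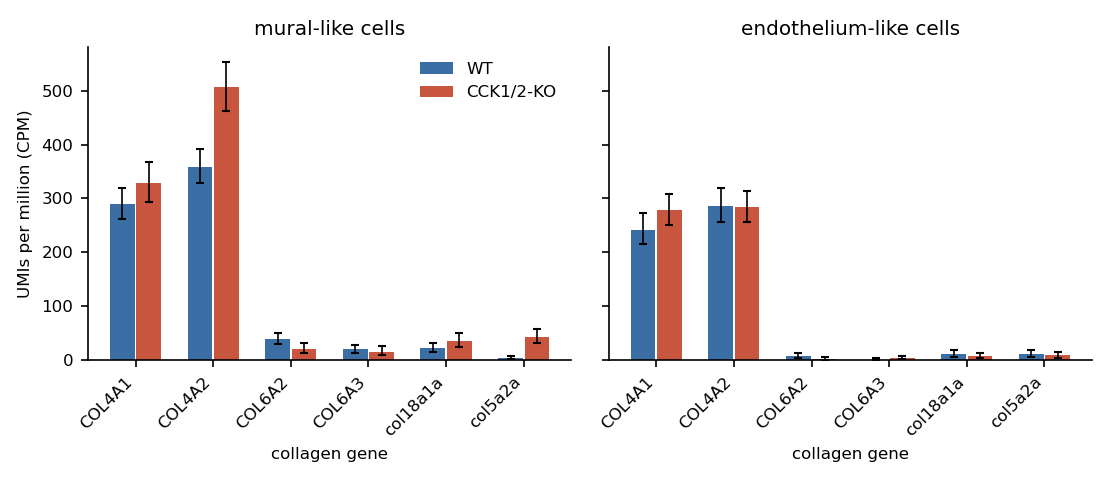
Level in CPM of COL4A1, COL4A2, COL6A2, COL6A3, col18a1a and col5a2a in mural-like (left) and endothelium-like cells (right), WT in blue and CCK1/2-KO in red, with exact 95% Poisson intervals as error bars. COL4A2 of mural-like cells stands at 359 and 507 CPM, and the col5a2a bar of CCK1/2-KO mural-like cells rests on 2 cells.

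Of the 15 collagen genes with at least 10 UMIs in mural-like cells, 3 were at least 2-fold higher in CCK1/2-KO, beside 8.19% of all genes there, and 4 at least 2-fold lower, beside 13.2%. The higher genes were both COL12A1 genes and col5a2a. COL12A1 (ENSDARG00000078322) had 5 and 24 UMIs, a ratio of 2.81 (1.39 to 4.55), while col5a2a had 3 WT UMIs in 3 cells and 40 CCK1/2-KO UMIs in 2 cells and so rests on a pair of cells. The lower genes were COL6A2, COL14A1 (13 and 4 UMIs), col1a1b (10 and 1) and col2a1b (9 and 1). Of these, all but COL6A2 had intervals that held 0. In both libraries COL14A1 lay below its level in erythrocyte-like cells, 10.7 and 7.596 CPM, and the part of free RNA in it was not tested. COL6A2 had 53 and 18 UMIs, or 38.4 and 19.01 CPM, a ratio of −1.01 (−1.87 to −0.22), and its partner col6a1 80.4 and 38.0 CPM. For col5a3a (24 and 9 UMIs) and COL5A1 (23 and 9 UMIs) the ratios of −0.87 and −0.81 had intervals that held 0, as had the 0.73 of col18a1a. The median of the 15 ratios was −0.35, against −0.06 for all genes of these cells.

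Depth and markers of other cells moved with genotype in the vessel classes. The median depth was 3411 UMIs in WT and 2673 UMIs in CCK1/2-KO mural-like cells, and 5676 and 6150 UMIs in endothelium-like cells. The macrophage marker list stood at 1193 CPM in WT and 571 CPM in CCK1/2-KO mural-like cells, the endothelium list at 2416 and 1895 CPM, and the mural list at 7662 and 8092 CPM. The fibroblast list, the markers of the cells that make most type I and type VI collagen in other organs, stood at 535 and 510.0 CPM. In endothelium-like cells the macrophage list stood at 1564 and 491 CPM and the mural list at 1043 and 830.2 CPM. The part of these differences in the collagen values was not tested.

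In endothelium-like cells only 7 collagen genes had at least 10 UMIs. 1 of them, COL14A1 with 4 and 13 UMIs, was at least 2-fold higher in CCK1/2-KO, beside 8.53% of all genes there. Its interval held 0 (−0.23 to 3.54), and 0 collagen genes were at least 2-fold lower, beside 11.7%. In erythrocyte-like cells COL14A1 stood at 10.7 and 7.596 CPM. Its level in endothelium-like cells lay below this in WT and slightly above it in CCK1/2-KO. How far free RNA entered these few COL14A1 UMIs was not tested. After the type IV chains, the most UMIs were those of COL12A1 (ENSDARG00000019601) with 9 and 13, col5a2a with 11 and 10 and col18a1a with 11 and 9. Apart from type IV, none of the 36 collagen genes exceeded 13 UMIs in these cells in either library. Collagen genes named only by the symbol table are not among the 36. Of those, col6a1 had 26 and 5 UMIs here, a ratio of −2.62 (−4.36 to −1.21). The gene col16a1 had 13 and 41 UMIs, a ratio of 1.42 (0.49 to 2.44).

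The cells of the fibroblast gate fell into those that also passed the lymphatic gate (18 in WT and 33 in CCK1/2-KO) and those that did not (18 and 23), and this split was made after the leading genes had been seen. Cells with lymphatic markers held the bulk of COL8A1, with 40 WT UMIs in 8 cells and 77 CCK1/2-KO UMIs in 20 cells, which is 60.6% and 57.5% of all its UMIs. The level of COL8A1 in these cells was 242 and 239 CPM, a ratio of −0.01 (−0.58 to 0.58), and 1.27 without the 3 highest cells. Cells with lymphatic markers also held 38 and 16 UMIs of col27a1b. Cells without lymphatic markers were led by ccl25b, epd, rbp4 and aldh1a2, the latter a gene of retinoic acid synthesis, and they held 24 and 9 UMIs of col1a1a in 3 and 4 cells. That is 43.6% and 29.0% of all col1a1a UMIs.

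Cells without lymphatic markers also had 62 and 22 UMIs of col18a1a, and 27 and 19 UMIs of col9a1a in 1 WT cell and 2 CCK1/2-KO cells. COL14A1 had 7 and 26 UMIs there. In the same cells the neuron marker list stood at 730 CPM in WT and 1789 CPM in CCK1/2-KO. The macrophage list was lower in CCK1/2-KO, with 909 and 403 CPM. The part of these differences in the collagen counts was not tested. Because single cells carried so much of these counts, the ratio of col18a1a in the whole gate, −1.69, turned to 0.83 without the 3 highest cells. Ratios between genotypes in this gate, here and elsewhere in the text, rest on few cells. No firm direction is taken from them.

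Astroglia-like cells were a broad source of collagen transcripts. They held 56.3% and 60.7% of the UMIs of col18a1a, which stood at 93.9 and 91.1 CPM there and 5.04-fold and 5.43-fold above all other cells. The cartilage-type chain col9a2 was still more concentrated, with 74.9% and 78.3% of its UMIs in these cells and a level 11.7-fold and 12.6-fold that of others. The type V chain col5a3a was 8.25-fold and 11.8-fold higher in astroglia-like cells than in others. In erythrocyte-like cells, col9a2 had 2.44 and 0.894 CPM and col18a1a 5.86 and 3.57 CPM.

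Type II and type IX, which form mixed fibrils in cartilage and in the eye, were found in the same glia. Of the astroglia-like cells, 98 in WT and 125 in CCK1/2-KO had UMIs of both col2a1b and col9a2, against 2 neuron-like cells in each library. UMIs of both COL5A1 and col5a3a, partner chains of type V, were found in 93 and 86 astroglia-like cells.

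Between genotypes, 4 of the 28 collagen genes with at least 10 UMIs in astroglia-like cells were at least 2-fold higher in CCK1/2-KO, beside 4.33% of all genes there, and 4 at least 2-fold lower, beside 5.68%. The higher genes were COL12A1 (ENSDARG00000078322), col1a1b, col5a2a and col11a1b, of which col5a2a had only 6 and 23 UMIs. In erythrocyte-like cells col5a2a had 0.488 and 2.23 CPM, also higher in CCK1/2-KO. COL12A1 (ENSDARG00000078322) had 39 and 224 UMIs, or 4.03 and 19.2 CPM, a ratio of 2.25 (1.76 to 2.78), and col11a1b 59 and 160 UMIs with 1.17 (0.73 to 1.63). For col1a1b, 11 and 42 UMIs gave 1.66 (0.68 to 2.77). In erythrocyte-like cells col11a1b had 5 and 12 UMIs, or 2.44 and 5.36 CPM, a ratio of 1.13 (−0.47 to 2.99). There, col1a1b had 2 and 1 UMIs. How far free RNA entered the astroglia-like counts of these genes was not tested.

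The lower genes in astroglia-like cells were COL4A4, col1a1a, col9a3 and col4a5. COL4A4 had 30 and 10 UMIs and a ratio of −1.85 (−3.05 to −0.78), and col4a5 65 and 36 UMIs with −1.12 (−1.75 to −0.51). The fibril-associated chain col9a3 had 105 and 57 UMIs, or 10.9 and 4.89 CPM, with −1.15 (−1.64 to −0.67). For col1a1a there were 22 WT UMIs in 8 cells and 4 CCK1/2-KO UMIs in 4 cells. The partner chain of col4a5, col4a6, which is named only by the symbol table, had a ratio of −0.08 (−0.40 to 0.23) in the same cells.

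Smaller differences were seen in the abundant genes of these glia. The level of col2a1b, 43.5 CPM in WT and 60.2 CPM in CCK1/2-KO, was higher by 0.47 (0.29 to 0.65), and that of COL6A3 by 0.57 (0.24 to 0.91). For col9a2 the ratio was −0.24 (−0.40 to −0.08). COL5A1 had −0.19 (−0.35 to −0.03) and col5a3a −0.23 (−0.40 to −0.05), but these turned to 0.20 and 0.05 when each cell was given the same weight, so that neither direction holds across the weightings. The median of the 28 ratios was −0.11, against −0.05 for all genes.

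Neuron-like cells held 75.3% and 76.0% of the UMIs of COL14A1, whose protein binds fibrils in skin and tendon. It stood at 124.5 and 118 CPM, 2.95-fold and 3.08-fold the level of other cells, and the ratio was −0.08 (−0.15 to −0.01). Thinned to equal depth, COL14A1 was found in 8.996% of the WT and 7.75% of the CCK1/2-KO neuron-like cells, against 0.749% and 1.14% of erythrocyte-like cells. Of the scarcer genes, col28a2a had 70.1% and 74.6% and col9a1b 76.7% and 83.0% of its UMIs in neuron-like cells, whereas col1a1a had 12.7% and 29.0% and COL8A1 22.7% and 32.1% there, below the 50.8% of all UMIs that these cells held.

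In neuron-like cells, 5 of the 35 collagen genes with at least 10 UMIs were at least 2-fold higher in CCK1/2-KO, beside 4.28% of all genes there, and 0 were at least 2-fold lower, beside 3.94%. COL12A1 (ENSDARG00000078322) had 142 and 389 UMIs, or 5.89 and 14.6 CPM, a ratio of 1.31 (1.03 to 1.60). COL8A1 had 15 UMIs in 10 WT cells and 43 in 20 CCK1/2-KO cells, a ratio of 1.37 (0.50 to 2.33). The type I chain col1a2 had 21 and 53 UMIs, with 1.19 (0.44 to 1.99), and the remaining pair was col11a2 with 16 and 37 UMIs and col8a1a.

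Among the abundant neuronal genes, COL5A1 was higher by 0.54 (0.38 to 0.71), from 20.2 CPM in WT to 29.5 CPM in CCK1/2-KO. The ratios of col18a1a and COL12A1 (ENSDARG00000019601) were 0.05 and 0.06 with intervals that held 0. At the lower end stood col5a3a with −0.46 (−0.85 to −0.08), COL6A3 with −0.42 (−1.13 to 0.28) and col9a2 with −0.31 (−0.74 to 0.11), of which only the interval of col5a3a lay below 0. The median of the 35 ratios was 0.11, against 0.03 for all genes.

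Oligodendrocyte precursor-like cells, led by aplnra, olig1, sox10 and olig2, had high levels of a few chains. COL14A1 stood at 336 and 242 CPM (78 and 70 UMIs) and col9a3 at 198 and 152 CPM (46 and 44 UMIs), the latter 30.5-fold and 42.1-fold the level of other cells. Next came col2a1b with 30 and 28 UMIs, col9a2 with 10 and 14 and col9a1a with 13 and 10. UMIs of both col9a2 and col9a3 were found in 6 WT and 6 CCK1/2-KO cells. The ratios of COL14A1, col9a3 and col2a1b, from −0.47 to −0.38, had intervals that held 0.

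In mature oligodendrocyte-like cells col5a2a stood at 44.4 CPM (90 UMIs in 43 cells) in WT, 10.8-fold the level of other WT cells, and at 17.3 CPM (25 UMIs in 20 cells) in CCK1/2-KO, a ratio of −1.36 (−2.06 to −0.71). The chain col9a3 was lower there too, with 43 and 11 UMIs and −1.48 (−2.59 to −0.50). In macrophage-like cells the highest level was that of COL5A1, with 62 UMIs (28.4 CPM) in WT and 190 UMIs (68.3 CPM) in CCK1/2-KO, a ratio of 1.27 (0.85 to 1.71). These genes were named after their values had been seen.

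COL12A1 (ENSDARG00000078322) was higher in CCK1/2-KO in several unrelated classes. Astroglia-like, neuron-like and mural-like cells are described above. In the oligodendrocyte-like class it had 3 UMIs in WT and 47 UMIs in 30 CCK1/2-KO cells. The macrophage-like class had 2 UMIs in WT and 69 UMIs in 40 CCK1/2-KO cells. Oligodendrocyte precursor-like cells had 1 UMI of it in WT and 10 UMIs in CCK1/2-KO, the latter in only 2 cells. In endothelium-like cells it had 7 and 6 UMIs. The fibroblast gate held 7 UMIs of it in 3 WT cells and 1 UMI in CCK1/2-KO, under the 10 UMIs needed for a class ratio. In erythrocyte-like cells it stood at 0.977 and 2.23 CPM from 2 and 5 UMIs. Its level in CCK1/2-KO neuron-like cells (14.6 CPM) and macrophage-like cells (24.8 CPM) lay above that of the erythrocyte-like cells.

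**Figure D5:**
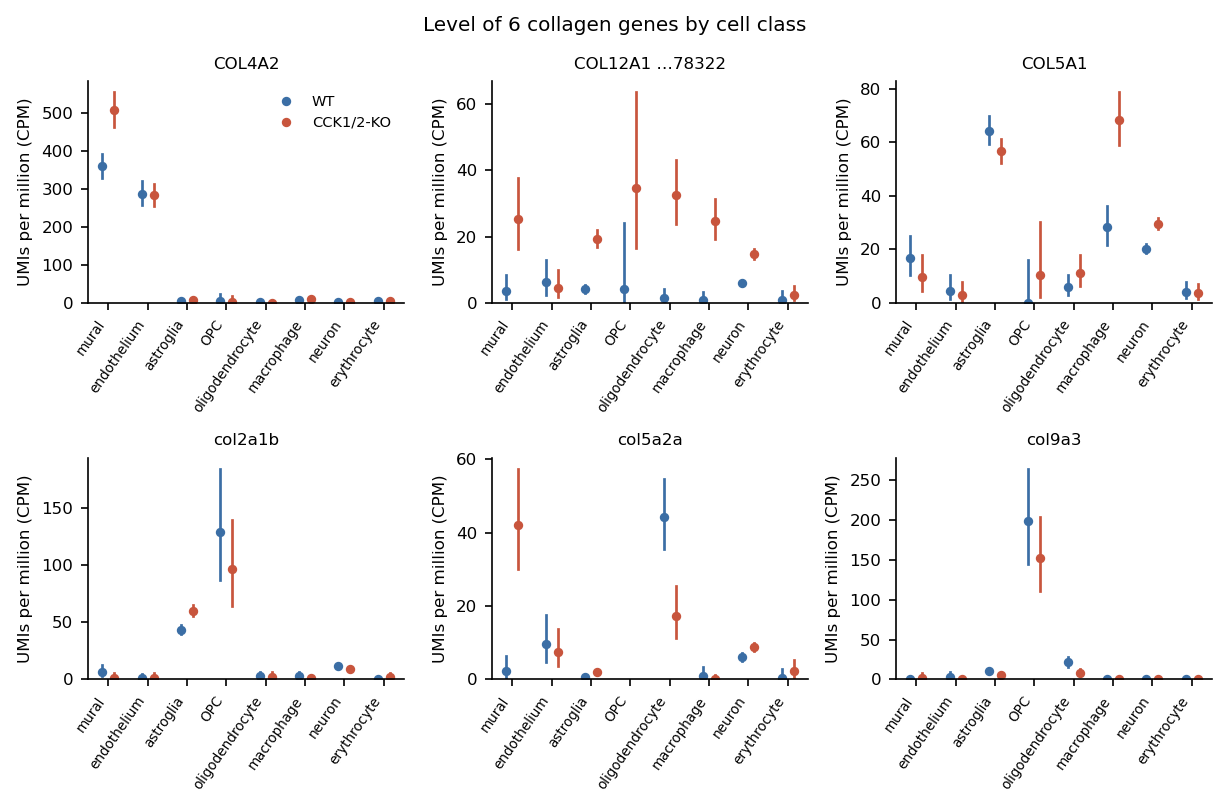
Level in CPM of COL4A2, COL12A1 (ENSDARG00000078322), COL5A1, col2a1b, col5a2a and col9a3 in 8 marker-gated classes, WT in blue and CCK1/2-KO in red, with exact 95% Poisson intervals as bars; OPC stands for oligodendrocyte precursor-like cells, and no point is drawn where neither library had a UMI. COL12A1 (ENSDARG00000078322) is higher in CCK1/2-KO in mural-like, astroglia-like, oligodendrocyte-like, macrophage-like and neuron-like cells, while the other genes differ in 1 or a few classes. The OPC level of COL12A1 (ENSDARG00000078322) is also higher, from 1 WT UMI and 10 CCK1/2-KO UMIs in 2 cells.

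Other partner chains were also looked for in the same cell. UMIs of COL6A2 and of col6a1 were found together in 51 WT and 21 CCK1/2-KO cells, which is 38.1% and 21.9% of the cells with COL6A2. Those of col9a2 and col9a3 were found together in 43 and 24 cells, 27.2% and 19.2% of the cells with col9a3. The type VIII chains COL8A1 and col8a2 were found together in 0 cells of either library: COL8A1 lay mainly in the fibroblast gate and col8a2 in astroglia-like cells, where it stood at 17.3 and 23.9 CPM, a ratio of 0.47 (0.18 to 0.75). At these counts per cell, a chain that was not counted may still have been present.

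The genes that make, cut, bind and degrade collagen were counted in 6 lists. Beside the counts of every list over all cells stand the shares of all genes with at least 10 UMIs. These were 3.53% at least 2-fold higher in CCK1/2-KO and 4.35% at least 2-fold lower. Of 17 measured genes for chain assembly and modification, 1 was at least 2-fold higher in CCK1/2-KO and 0 lower, with a median ratio of −0.03. The higher gene was p4ha1b, a prolyl hydroxylase subunit, with 14.4 and 34.4 CPM and 1.26 (1.13 to 1.38). The lysyl hydroxylase gene plod1a reached 1.00 (0.84 to 1.15) from 10.3 and 20.5 CPM, just under the 2-fold limit, and its relative plod2 stood at −0.61. The most abundant genes of the list, ppib, sec23a and p4ha2, which fold, export and hydroxylate procollagen, had −0.07, 0.11 and 0.50. In mural-like cells plod1a stood at 68.1 and 219 CPM, a ratio of 1.68 (1.32 to 2.05).

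Among 19 genes of procollagen cleavage and cross-linking, 2 were at least 2-fold higher and 1 lower, with a median of 0.13. The extremes were the lysyl oxidase relative loxl2a, with 11 and 61 UMIs and 2.32 (1.39 to 3.40), and pcolcea, an enhancer of C-terminal procollagen cleavage in mammals, with 129 and 54 UMIs and −1.40 (−1.89 to −0.93). The abundant genes bmp1a, bmp1b and loxl3b had 0.49, −0.11 and −0.31. Other basement membrane genes, 12 measured, gave 0 in either direction and a median of −0.02, and the proteoglycan gene agrn, the most abundant, had −0.01. The highest and lowest of that list were lamb4 with 0.36 and lamb1a with −0.28.

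The 10 measured receptor genes also gave 0 in either direction, with a median of 0.14. The abundant receptor genes DDR1, ITGA1 and itgb1a had −0.01, 0.05 and 0.39, and the extremes were itga11a with 0.48 and ITGA10 with −0.79. Of 10 breakdown genes and inhibitors, 0 were at least 2-fold higher and 2 lower, with a median of 0.02. The gelatinase gene mmp9 stood at 21.6 and 7.96 CPM, a ratio of −1.44 (−1.61 to −1.28), whereas the membrane-bound protease gene mmp14b had 0.80, and the abundant genes timp2b, RECK and mmp2 had −0.13, 0.05 and −0.18.

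Of 13 other connective tissue genes, 1 was at least 2-fold higher, postnb with 72 and 186 UMIs and 1.22 (0.82 to 1.64), and 0 were lower, with a median of −0.15. The abundant genes spock3, fn1b and vcanb had −0.18, −0.14 and 0.12, and fbn2b was lowest with −0.28. For each of these lists the median over all genes was −0.01. Only the list genes measured in a class entered the medians of that class. In mural-like cells the 6 medians ran from −0.73 (cleavage and cross-linking, 8 genes) to 0.17 (other basement membrane, 8 genes), against −0.06 for all genes. In endothelium-like cells the medians ran from −0.77 (other connective tissue, only 5 genes) to 0.55 (receptors, only 4 genes). The other basement membrane genes, 8 measured, had −0.27 there, against −0.06 for all genes.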

How the data were processed

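For each library the authors deposited raw UMI counts per gene and cell barcode. The submitters' processing notes name Cell Ranger, Seurat and the build GRCz11; the annotation release is not given in the sources used here, so no coordinates are given. The deposited counts were whole numbers with no normalization and no cell types, and 0 columns belonged to unmapped samples. Of 32057 listed genes, 11398 had no name of their own, and 19 further collagen genes named only by a symbol table were not counted as members. The members and lists were chosen with earlier results of these data known.

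A barcode passed with 500 UMIs or more from 250 genes or more, and a mitochondrial share of 20% or less. Scrublet (scanpy 1.11.5, Python 3.11.15) scored doublets, and the highest scores were removed at 0.8% per 1000 barcodes, which took 701 of WT (7.58%) and 1077 of CCK1/2-KO (9.39%). The removed barcodes had medians of 2310 and 2121 UMIs, below those of the kept cells. The libraries held 51744329 and 58095515 UMIs over 9364 and 11604 barcodes, and 47467489 and 52541518 UMIs in kept cells. 52 barcodes that occur in both libraries were treated as separate cells.

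A cell was erythrocyte-like with at least 20% haemoglobin UMIs. Otherwise it took the class with at least 3 distinct markers and 4 UMIs of them whose scaled marker share was 1.5 times the next. Cells passing several classes (596 and 578) or none (633 and 959) were left out of class values. Ratios are CCK1/2-KO over WT of CPM, UMIs per 1000000 UMIs of the same cells, on the log2 scale with no pseudocount. Poisson, conditional binomial and Clopper-Pearson intervals (scipy 1.17.1) cover counting error only and treat UMIs as independent, so they are too narrow where few cells hold many UMIs. A class ratio needed 10 UMIs of a gene. Shares came from 1 random thinning of each cell to 1000 UMIs, which left out 2209 and 2887 shallower cells.

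Named genes were the 10 with the most UMIs and, with at least 50 UMIs, the 8 highest and 8 lowest ratios; per class the 5 with the most UMIs and, with at least 30 UMIs, the 3 highest and 3 lowest; per list the 3 with the most UMIs and the highest and lowest ratio. Genes at least 2-fold different, partner chains and genes of oligodendrocyte-like and macrophage-like cells were named in addition. The intervals and fold calls were tested on simulated counts. These were independent, as the intervals assume, so that UMIs held by few cells were not covered. Alternatives were doublets kept, a stricter filter, each gene without its 3 highest cells, another total, equal weight per cell, other marker numbers, free RNA subtracted, fixed class shares, a higher UMI minimum and other thinning; chosen after seeing the data were no lead over the next class, a shorter astroglia list and the split of the fibroblast gate.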

Additional observations from a re-analysis of the deposited data

Results flagged for a closer look

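Outside the fibroblast gate, which holds a mix of cells, 3 collagen genes had ratios on opposite sides of 0 in different cell classes, each with a counting interval that left out 0 with all cells and without the 3 highest cells. Within that gate, some genes also lay opposite to another class. COL14A1 (7 and 28 UMIs), col1a2 (20 and 4), col9a1a (27 and 20) and COL6A3 (12 and 5) were among them. Their ratios of 1.46, −2.87, −0.98 and −1.81 rest on 1 to 8 cells per library. Neuron markers were also higher in CCK1/2-KO in the gate's cells without lymphatic markers, and their part in the COL14A1 value was not tested. The gene col27a1b rested on more cells there, 16 and 12, with counts of 48 and 24. Its ratio in the gate was −1.54 (−2.32 to −0.81), and −1.26 (−2.30 to −0.26) without the 3 highest cells. Over all kept cells, col27a1b was instead higher in CCK1/2-KO. The difference between the classes was not tested, since each genotype is 1 library. COL5A1 was higher in CCK1/2-KO in neuron-like cells (log2 ratio 0.54, 488 and 788 UMIs) and in macrophage-like cells (1.27, 62 and 190 UMIs), and lower in astroglia-like cells (−0.19, 622 and 659 UMIs), where the value turned to 0.20 with equal weight per cell. Leaving out the 3 highest cells per library gave 0.45, 1.47 and −0.19, in that order.

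The type II gene col2a1b was higher in astroglia-like cells (0.47, 421 and 702 UMIs) and lower in neuron-like cells (−0.29, 278 and 251 UMIs), with 0.48 and −0.30 without the 3 highest cells. The type V gene col5a2a was higher in astroglia-like cells (1.67, 6 and 23 UMIs) and neuron-like cells (0.54, 146 and 235 UMIs) and lower in oligodendrocyte-like cells (−1.36, 90 and 25 UMIs). Without the 3 highest cells these were 2.64, 0.51 and −1.54. In erythrocyte-like cells col5a2a had 1 and 5 UMIs, or 0.488 and 2.23 CPM, also higher in CCK1/2-KO. How far free RNA entered the scarce astroglia-like counts of col5a2a was not tested.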

How the results depend on the processing

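No paired analysis was possible because each genotype has only replicate 1, and leaving out a replicate was not possible for the same reason. The vessel classes and the fibroblast gate rest on few cells, and differences between fish are not measured. Of the values that answer a comparison, 155 stayed near the reported value under an alternative and 61 moved; of those of single genes, 444 stayed, 30 moved and 4 reversed. With doublets kept, another total, free RNA subtracted, class shares held at WT or the shorter astroglia list, the only value of a comparison that moved was the count of genes at least 2-fold lower over all cells, which was 1 in place of 0 with doublets kept. The causes of the changes below were not tested, beyond the fewer or other cells that each setting leaves.

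Over all cells, the count of genes at least 2-fold higher (3) was 5 without the 3 highest cells and 1 at 50 UMIs, and the count lower (0) was 2 under the stricter filter, 1 without the 3 highest cells and 2 with equal weight per cell. Within classes, the higher count was 8 in neuron-like cells (5) with equal weight and 6 in mural-like cells (3) with no lead over the next class. In endothelium-like cells (1) it was 3 without the 3 highest cells, 2 with 4 markers, 0 with 2 markers and 2 with no lead. The lower count was 2 in astroglia-like cells (4) with 4 markers, 2 in mural-like cells (4) with 2 markers and 1 in neuron-like cells (0) without the 3 highest cells. In endothelium-like cells (0) it was 1 with equal weight, 2 with 4 markers and 3 with no lead. The share of all genes called under each setting is not given here, so these counts only show how the calls moved.

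With equal weight per cell, the ratio of the summed level was 0.11 over all cells, 0.13 in astroglia-like cells, 0.47 in mural-like cells and −0.33 in the fibroblast gate. The astroglia-like value was −0.025 under the stricter filter, and that of the fibroblast gate −0.48 without the 3 highest cells and −0.56 with 2 markers. Reversed were col4a5 over all cells (0.17), COL5A1 (0.20) and col5a3a (0.048) in astroglia-like cells, all with equal weight, and col18a1a in the fibroblast gate (0.83) without the 3 highest cells.

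The share of collagen UMIs moved with the gate, as the number of cells in a class did. Under the stricter filter it was 35.8% in WT and 35.5% in CCK1/2-KO for astroglia-like cells, 37.7% and 39.0% for neuron-like cells and 1.85% and 1.12% for the fibroblast gate. With 4 markers it was 40.2% and 40.9% for neuron-like, 33.5% in CCK1/2-KO for astroglia-like, 5.86% and 4.50% for mural-like, 5.29% and 6.70% for endothelium-like cells and 1.61% and 1.08% for the fibroblast gate. With 2 markers it was 37.1% and 38.3% for neuron-like, 26.3% and 28.7% for astroglia-like, 0.984% and 1.51% for endothelium-like cells and 2.64% and 2.39% for the fibroblast gate. With no lead it was 40.2% and 40.8% for neuron-like, 34.6% and 34.5% for astroglia-like, 8.53% and 6.65% for mural-like, 5.24% and 6.28% for endothelium-like cells and 2.05% in CCK1/2-KO for the fibroblast gate. The share of cells with a collagen UMI was 44.7% and 45.9% without thinning and 11.7% and 12.3% when thinned to 500 UMIs.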
